A study of Mus musculus with 8 samples.

Results

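The ciliary margin genes described here are 9 genes used as markers or regulators of the rim of the embryonic retina: the transcription factor genes Zic1, Zic2, Otx1, Msx1 and Mecom, and Wfdc1, Gja1, Wls and Cdon, whose products are secreted or sit in membranes. They were chosen by gene symbol, and each matched 1 row of the deposited table of 16096 genes, so no member was absent. Peripheral retina of mouse embryos (C57BL/6, embryonic day 16.5) was dissected for RNA sequencing, giving 4 Ezh2fl/null and 4 Ezh2fl/+ libraries. All 8 libraries carry Pax6alpha-Cre, a recombinase driven by a retinal enhancer of Pax6 that is active in the periphery of the optic cup, together with 1 floxed Ezh2 allele. The other allele is null in Ezh2fl/null embryos and wild type in Ezh2fl/+ embryos, so cells without Cre activity, such as pigment epithelium, lens or vessels caught in the dissection, differ between the groups by the null allele alone. Ezh2 encodes the enzyme of Polycomb repressive complex 2 that methylates lysine 27 of histone H3.

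The ciliary margin is the zone between neural retina and pigment epithelium that gives rise to the ciliary body and iris. In vertebrate eyes, Wnt signalling from neighbouring surface ectoderm and pigment epithelium, together with bone morphogenetic protein signalling, is known to specify this zone. Polycomb repressive complex 2 commonly occupies promoters rich in CpG dinucleotides, especially those of developmental transcription factor genes.

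Promoter letters are shown for the members on which the comparison turned and for which a sequence was at hand: Mecom and Zic1, which had the largest and the most precisely measured increase among the 8 members tested, Msx1, which had very few reads, and Gja1, whose call was the least secure. The sequences are from RefSeq on GRCm38.p6, each 250 bases long, given 5′ to 3′ on the strand of the gene and ending at the base before the annotated start. Capitals mark CpG dinucleotides. They lie at chr3:30509760-30510009 (minus strand) for Mecom, chr9:91365769-91366018 (minus strand) for Zic1, chr5:37824586-37824835 (minus strand) for Msx1 and chr10:56377050-56377299 (plus strand) for Gja1.
Mecom: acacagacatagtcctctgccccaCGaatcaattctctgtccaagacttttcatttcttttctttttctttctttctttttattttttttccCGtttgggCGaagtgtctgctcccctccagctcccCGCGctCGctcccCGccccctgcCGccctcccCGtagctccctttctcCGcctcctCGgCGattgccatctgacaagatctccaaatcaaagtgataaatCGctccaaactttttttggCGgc
Zic1: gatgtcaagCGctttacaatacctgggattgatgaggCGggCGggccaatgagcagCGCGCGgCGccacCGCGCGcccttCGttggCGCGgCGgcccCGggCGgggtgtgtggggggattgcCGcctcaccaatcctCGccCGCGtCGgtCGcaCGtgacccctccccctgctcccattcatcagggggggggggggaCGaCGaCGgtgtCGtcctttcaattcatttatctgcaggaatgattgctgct
Msx1: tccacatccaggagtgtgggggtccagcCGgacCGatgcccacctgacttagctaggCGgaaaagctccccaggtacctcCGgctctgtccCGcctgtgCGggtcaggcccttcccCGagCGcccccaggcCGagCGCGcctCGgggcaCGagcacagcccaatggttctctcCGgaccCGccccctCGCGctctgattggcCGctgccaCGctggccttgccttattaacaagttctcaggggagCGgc
Gja1: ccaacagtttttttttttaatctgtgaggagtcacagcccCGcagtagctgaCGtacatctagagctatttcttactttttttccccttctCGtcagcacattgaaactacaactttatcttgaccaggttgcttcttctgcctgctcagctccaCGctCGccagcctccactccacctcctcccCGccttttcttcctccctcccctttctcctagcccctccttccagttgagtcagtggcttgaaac
The Zic1 window held 27 CpG dinucleotides, more than or as many as 92.4% of 32851 RefSeq promoters, whose median was 6. Msx1 held 20 (83.7% had as many or fewer), this Mecom start 14 (72.7%) and Gja1 6 (53.7%). Of the 9 members, 6 had 7 RefSeq entries between them, and Otx1, Zic2 and Wfdc1 had none. The second Mecom start and Wls held 8 each, and Cdon held 1. The RefSeq starts of Mecom lay 38249 and 534804 bases inside the most upstream start of the GENCODE gene model, and that of Cdon 30948 bases inside. Starts of the other members lay at most 42 bases from the GENCODE start.

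The 7 windows were searched on both strands for ATCAAAG, a core bound by the Wnt effectors TCF and LEF, for TAATCC, a core bound by OTX proteins, and for TAATTG, a core bound by MSX proteins. ATCAAAG occurred once, in the Mecom window printed above, at position -38 from the start, and overlapped neither of the other motifs. The motif was present in 3.21% of all promoters of this length. Neither TAATCC nor TAATTG, which 6.25% and 7.17% of promoters held, was found in a member's window. A match is a string of letters and was not tested as a binding site.

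Libraries held 13994825 to 18391647 counted reads, and 15014 genes passed the filter on low counts. Mitochondrial rRNA took 8.19% to 14.0% of the counts. Xist, the transcript of the inactive X chromosome, had 1874 and 1714 counts in Ezh2fl/null replicates 2 and 3 and at most 4 in the other 6 libraries. Ezh2 itself averaged 251 ± 23.1 CPM (counts scaled to the normalized library size) in Ezh2fl/null libraries and 217 ± 18.1 CPM in Ezh2fl/+ libraries (SD, n = 4 each). Its difference was log2 0.21 (SE 0.07, edgeR adjusted p = 0.0701), so the whole-gene count showed no decrease; reads over the deleted exons alone were not analysed here, and group names below are those of the labels. The Ezh2 call passed the threshold, in the same direction, under 3 of 20 alternative analyses. The labels do not say whether libraries came from separate embryos or litters, and a p-value here reflects only how far these libraries spread, which may be technical.

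Of the 9 members, Mecom, Zic1, Wfdc1 and Gja1 were higher in Ezh2fl/null libraries, none was lower, and Otx1, Wls, Zic2 and Cdon did not pass the test. Msx1 had too few reads to enter it. A call here is an adjusted p under 0.05 in edgeR's quasi-likelihood test over all 15014 genes, of which 8.35% were called higher and 3.46% lower. For 3 of the members, Zic1, Mecom and Wfdc1, every Ezh2fl/null library lay above every Ezh2fl/+ library in CPM, as did 10.1% of all genes tested, and none lay wholly below, as 6.21% of genes did. The median log2 fold change was 0.57 over the 8 members tested, with 6 of 8 above 0, and -0.01 over all genes tested. In bulk tissue, more cells of a type and more RNA per cell cannot be told apart.

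**Figure D1:**
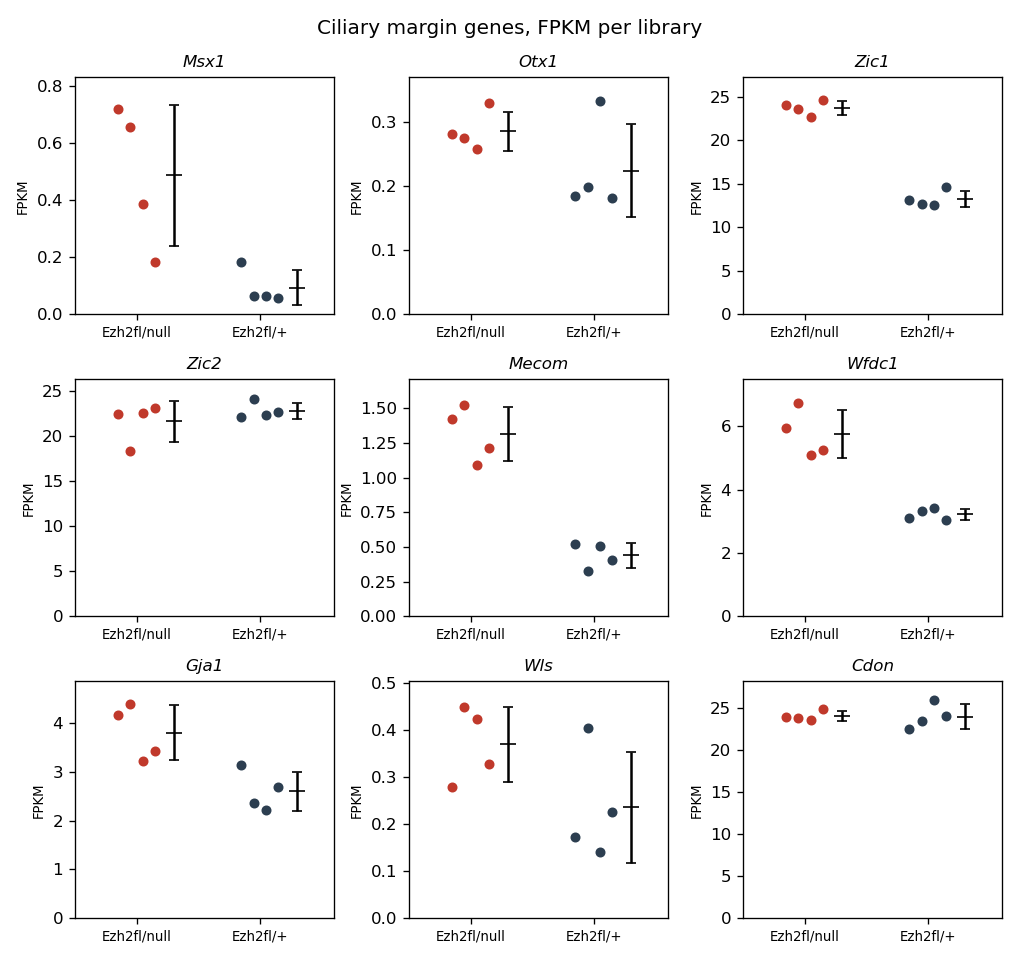
FPKM of each ciliary margin gene in each library (vertical axes, linear from 0), Ezh2fl/null in red on the left and Ezh2fl/+ in dark blue on the right, replicates 1 to 4 running left to right in each group, with the mean and SD (n = 4) in black. Zic1, Mecom and Wfdc1 have well separated groups, Gja1 groups are just apart (3.22 against 3.13 FPKM), and Zic2 and Cdon lie between 18.3 and 26.0 FPKM in both.

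Levels were ordered on the FPKM scale, which allows for gene length. In Ezh2fl/null libraries the highest were Cdon at 24.1 ± 0.556, Zic1 at 23.7 ± 0.836 and Zic2 at 21.6 ± 2.23 FPKM (fragments scaled by gene length and library size, mean ± SD, n = 4), whose ranges overlapped from each to the next. Wfdc1 followed at 5.77 ± 0.755, Gja1 at 3.80 ± 0.563 and Mecom at 1.31 ± 0.196 FPKM, each clear of the next. Msx1, Wls and Otx1 were lowest, at 0.487 ± 0.247, 0.370 ± 0.0803 and 0.285 ± 0.0303 FPKM, with overlapping ranges. In Ezh2fl/+ libraries the order was Cdon, Zic2, Zic1, Wfdc1, Gja1, Mecom, Wls, Otx1 and Msx1. Ranges of neighbours in that order overlapped except between Zic2 and Zic1, Zic1 and Wfdc1, and Gja1 and Mecom, so the last place of Msx1 was not resolved. There Zic2, at 22.7 ± 0.895 FPKM, stood apart from Zic1, at 13.3 ± 0.957 FPKM.

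Zic1 encodes a zinc-finger transcription factor of developing neural tissue and eye. Its gene lies at chr9:91358058-91365810 on the minus strand (mm10). The Ezh2fl/null libraries had 2516, 1987, 1933 and 2202 counts, against 1047, 1074, 1072 and 1447 counts in the Ezh2fl/+ libraries. All Ezh2fl/null values were above all Ezh2fl/+ values, with little spread in either group. The level was 134 ± 5.04 CPM in Ezh2fl/null and 76.1 ± 4.45 CPM in Ezh2fl/+ libraries, a rise of log2 0.82 (SE 0.05, with 95% limits of 0.71 to 0.92, adjusted p = 1.08e-07). An exact two-sided permutation test of log2 CPM gave p = 0.0286, the smallest that 70 assignments of 4 against 4 allow.

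Zic2, a paralog with a closely related zinc-finger domain, lies at chr14:122475435-122479852 on the plus strand. It had 1187, 778, 976 and 1047 counts in Ezh2fl/null libraries, against 890, 1033, 959 and 1130 counts in Ezh2fl/+ libraries. The groups overlapped, and replicate 2 of Ezh2fl/null was the low one at 54.2 CPM. Zic2 differed by log2 -0.10 (SE 0.06, with 95% limits of -0.23 to 0.03, adjusted p = 0.379). Because both paralogs were counted in the same libraries, their ratio does not depend on library scaling. Counts of Zic1 were 2.12, 2.55, 1.98 and 2.10 times those of Zic2 in Ezh2fl/null libraries, against 1.18, 1.04, 1.12 and 1.28 times in Ezh2fl/+ libraries. The log2 ratio differed by 0.92 between groups (exact permutation p = 0.0286). How reads that match both paralogs were assigned was not stated in the sources used.

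Zic1 and Zic2 each have a Zic neighbour in the genome, and Zic4, next to Zic1, rose as well. The annotated starts of Zic1 and Zic4 lie 3397 bases apart on opposite strands, that of Zic4 inside the Zic1 gene. Those of Zic2 and Zic5 lie 9758 bases apart, also on opposite strands. Zic4 rose by log2 0.91 (SE 0.12, adjusted p = 9.20e-05), with 9.83 ± 1.40 CPM in Ezh2fl/null and 5.23 ± 0.371 CPM in Ezh2fl/+ libraries. Zic5, which fell outside the rule for naming genes and is named after its values were seen, had a log2 fold change of -0.08 (adjusted p = 0.436). The log2 ratio of Zic4 to Zic5 counts was -2.26 ± 0.149 in Ezh2fl/null and -3.24 ± 0.116 in Ezh2fl/+ libraries, a difference of 0.98, given as a description because Zic5 was chosen after its values were seen. Within neighbours the log2 ratio differed by -0.08 between groups for Zic1 to Zic4 and by -0.02 for Zic2 to Zic5. Zic1 and Zic4 share 60 exon bases of opposite strand in GENCODE, out of 5693 in the Zic1 exon union and 10335 in that of Zic4. Zic4, with far fewer counts than Zic1, also shares 468 exon bases with the annotated opposite-strand gene Gm37477, which has no row. Whether counting used strand was not stated in the sources used.

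**Figure D2:**
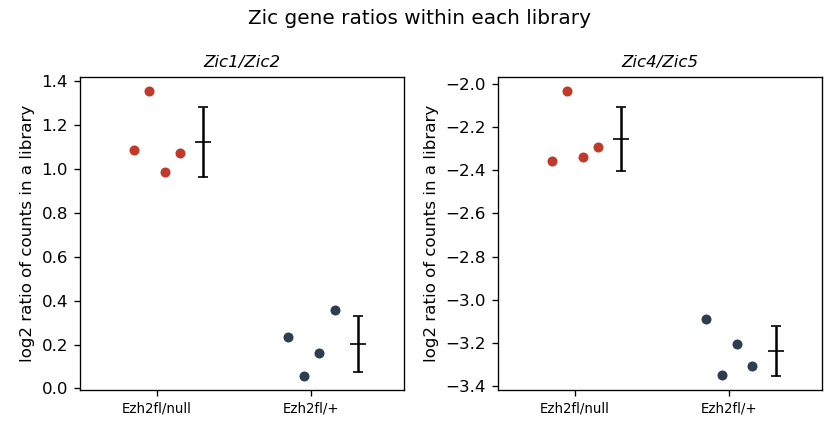
The log2 ratio of counts of Zic1 to Zic2 and of Zic4 to Zic5 in each library (vertical axes), Ezh2fl/null in red on the left and Ezh2fl/+ in dark blue on the right, with mean and SD (n = 4) in black. The groups do not overlap in either panel, and the differences are 0.92 and 0.98.

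Mecom, also called Evi1, encodes a zinc-finger transcription factor of the PRDM family. It spans chr3:29951296-30548008 on the minus strand with 17 annotated transcripts, which the counts pool. The Ezh2fl/null libraries held 277, 238, 173 and 202 counts, against 77, 51, 80 and 75 counts in Ezh2fl/+ libraries. No value of 1 group came near the other. Mecom averaged 13.8 ± 2.35 CPM in Ezh2fl/null and 4.72 ± 1.17 CPM in Ezh2fl/+ libraries, which is 2.95 times as much in the fit (log2 1.56, SE 0.16, 95% limits 1.22 to 1.90, adjusted p = 1.07e-05). The annotated antisense gene Mecomos shares 81 exon bases with it and has no row of its own.
Of 4 relatives of Mecom tested, Prdm8 was called higher (log2 0.65, SE 0.09, adjusted p = 0.000188), none lower and 3 did not pass. Among all genes tested, 8.35% were called higher.

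Msx1 encodes a homeobox repressor known from the ciliary margin and from limb and tooth development, and lies at chr5:37820485-37824583 on the minus strand. The Ezh2fl/null libraries had 41, 30, 18 and 9 counts, 98 in all, against 8, 3, 3 and 3 counts, 17 in all, in Ezh2fl/+ libraries. Replicate 4 of Ezh2fl/null, at 0.556 CPM, lay just below replicate 1 of Ezh2fl/+, at 0.599 CPM, and the other 3 Ezh2fl/null libraries lay between 1.18 and 2.20 CPM. The exact permutation p was 0.0571. The filter, which asks for its minimum in 4 libraries, left Msx1 out because 3 reached it. Without a filter edgeR gave a log2 fold change of 2.40 (SE 0.49, adjusted p = 0.00437), and DESeq2 gave 2.40 (adjusted p = 0.000198). On the log2(FPKM + 0.1) scale limma gave 1.54, given as a description. Msx1 passed the limma filter, a mean of at least 0.1 FPKM, through the Ezh2fl/null mean of 0.487, with 0.0925 in Ezh2fl/+ libraries. In 5 fits with 1 library left out, Msx1 passed the filter through Ezh2fl/null libraries alone, so its estimates there, 2.18 to 2.95, are given as a description. The authors' deposited table gives a log2 ratio of 1.32, from their own comparison. Whether that ratio was moderated for low counts was not checked, so it may not be a like measure to these estimates.

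Otx1, an orthodenticle homeobox gene of forebrain and anterior optic cup at chr11:21994764-22002897 on the minus strand, had 28, 22, 21 and 28 counts in Ezh2fl/null libraries, against 14, 16, 27 and 17 counts in Ezh2fl/+ libraries. In CPM, replicate 3 of Ezh2fl/+ was above every Ezh2fl/null library, and the other 3 were below all of them. Otx1 thus had an uncertain fold change, log2 0.33 (SE 0.24, with 95% limits of -0.18 to 0.84, adjusted p = 0.457). Its paralogs Otx2 and Crx, which act in photoreceptor precursors, were higher by log2 0.26 (SE 0.05, adjusted p = 0.00166) and 0.30 (SE 0.04, adjusted p = 0.000116). Of the 7 Zic, Msx and Otx paralogs looked up, Zic4, Otx2 and Crx were called higher, and 2 did not pass. Msx2 had too few reads to test and Msx3 had no row. The share of all genes tested that were called higher was 8.35%.

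Wfdc1 encodes a secreted protein with a whey acidic protein domain, used as a ciliary margin marker in chick and mouse. It lies at chr8:119666365-119688222 on the plus strand. Counts were 133, 121, 93 and 100 in Ezh2fl/null libraries, against 53, 60, 62 and 64 in Ezh2fl/+ libraries, with no overlap in CPM. Wfdc1 rose by log2 0.82 (SE 0.13, with 95% limits of 0.54 to 1.10, adjusted p = 0.000679, exact permutation p = 0.0286), the same point estimate as for Zic1 with wider limits.

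Gja1 encodes connexin 43, the gap junction protein that couples pigmented and nonpigmented ciliary epithelium. It lies at chr10:56377330-56402513 on the plus strand. Counts were 238, 201, 150 and 167 in Ezh2fl/null libraries, against 136, 109, 103 and 145 in Ezh2fl/+ libraries. The groups met: the lowest Ezh2fl/null library had 9.84 CPM and the highest Ezh2fl/+ library 10.2 CPM, while on the FPKM scale they were just apart, at 3.22 and 3.13 FPKM. Gja1 rose by log2 0.53 (SE 0.13, with 95% limits of 0.24 to 0.82, adjusted p = 0.0177), and the exact permutation p was 0.0571. This call ended under 6 of 20 alternatives, with adjusted p up to 0.0900, among them leaving out replicate 1 or 2 of Ezh2fl/null or replicate 2 or 3 of Ezh2fl/+. Of 9 other connexin genes, 5 had no row, and Gjd2, the connexin 36 of neurons, rose by log2 0.55 (SE 0.09, adjusted p = 0.000677).

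Wls encodes Wntless, the membrane protein that carries Wnt ligands out of the cell, and lies at chr3:159839672-159938664 on the plus strand. It had 17, 22, 21 and 17 counts in Ezh2fl/null libraries, against 8, 20, 7 and 13 counts in Ezh2fl/+ libraries. Replicate 2 of Ezh2fl/+ reached into the Ezh2fl/null range, and the other 3 were below it. The estimate was log2 0.60 (SE 0.31, with 95% limits of -0.05 to 1.26, adjusted p = 0.250), and at this depth both no change and a rise as large as that of Zic1 lay within the limits.

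Of 17 other genes of Wnt secretion and Wnt ligands, 9 were tested, 4 were called higher and none lower. These were Wnt5a (log2 0.98, SE 0.12), Notum, a secreted inhibitor that removes the lipid of Wnt ligands (1.21, SE 0.19), Wnt5b (0.49, SE 0.09) and Wnt3 (0.44, SE 0.13), with adjusted p of 5.29e-05, 0.000571, 0.00298 and 0.0378. The call of Wnt3 ended under 11 of 20 alternatives. Calls over all genes tested stood at 8.35% higher and 3.46% lower.

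Cdon encodes a Hedgehog co-receptor of the immunoglobulin superfamily and lies at chr9:35421128-35507652 on the plus strand. It had 3407, 2721, 2733 and 3017 counts in Ezh2fl/null libraries, against 2432, 2698, 2996 and 3228 counts in Ezh2fl/+ libraries. The Ezh2fl/null range, 179 to 189 CPM, lay inside that of the Ezh2fl/+ libraries, 177 to 210.1 CPM. Cdon differed by log2 -0.02 (SE 0.05, with 95% limits of -0.13 to 0.09, adjusted p = 0.872), so the limits leave out a change as large as that of Zic1, Mecom or Wfdc1 in either direction. Of 10 other Hedgehog pathway genes, Boc, a second co-receptor, was called higher (log2 0.36, SE 0.10, adjusted p = 0.0318) and the transcription factor genes Gli1 (-0.44, SE 0.10, adjusted p = 0.00937) and Gli3 (-0.21, SE 0.05, adjusted p = 0.0172) lower. The call ended under 8 of 20 alternatives for Boc, 2 for Gli1 and 7 for Gli3. Over all genes tested, 8.35% were called higher and 3.46% lower, so 1 of 10 higher is near the share of all genes.

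**Figure D3:**
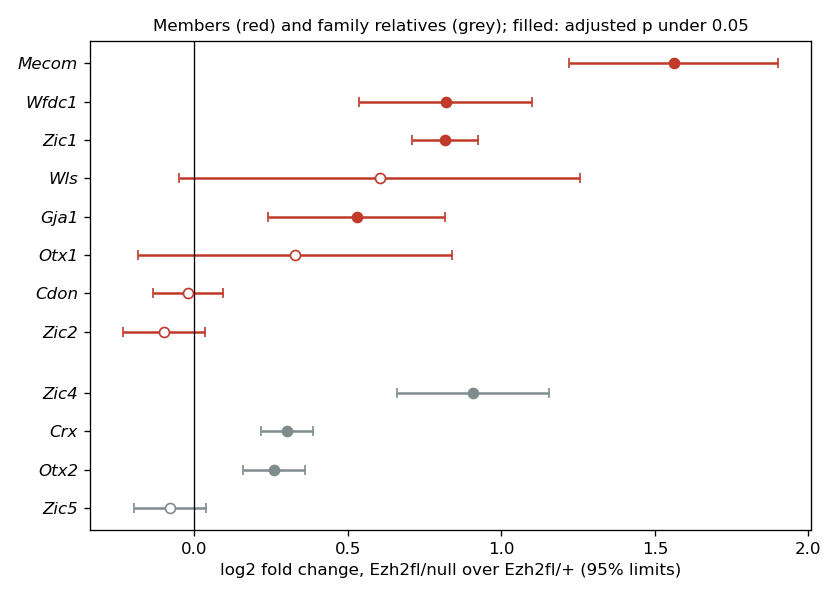
The log2 fold change of Ezh2fl/null over Ezh2fl/+ with 95% limits (horizontal axis) for the 8 members tested, in red, and 4 relatives, in grey; filled points have an edgeR adjusted p under 0.05. Mecom stands highest at 1.56, Zic1 and Wfdc1 share 0.82, and Zic2, Cdon and Zic5 lie near 0.

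Within the Ezh2fl/null group, 3 of the members that rose shared an order of libraries. In CPM, Mecom (14.9, 16.6, 11.3 and 12.5 in replicates 1 to 4), Wfdc1 (7.15, 8.42, 6.10 and 6.18) and Gja1 (12.8, 14.0, 9.84 and 10.3) were each highest in replicate 2, next in replicate 1 and lowest in replicate 3. Zic1 varied less, from 127 to 138 CPM, and was also highest in replicate 2 and lowest in replicate 3. The share of mitochondrial rRNA was likewise highest in replicate 2, at 14.0%, against 9.84% to 11.1% in the other 3. With that share as a covariate the same 4 members were called higher. In Ezh2fl/+ libraries the coefficient of variation was 5.85% for Zic1, 8.11% for Wfdc1, 17.4% for Gja1 and 24.7% for Mecom. There the mitochondrial share was higher in replicates 1 and 3, at 13.7% and 13.5%, than in replicates 2 and 4, at 8.72% and 8.19%. Mecom, at 5.77, 3.34, 5.61 and 4.18 CPM in replicates 1 to 4, was higher in replicates 1 and 3 as well. Wfdc1 was too, by less (3.97, 3.93, 4.35 and 3.56 CPM), while Zic1 and Gja1 did not split this way.

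Other genes known from the ciliary margin moved in both directions. Of 14 looked up, 12 were tested, 4 were called higher, 2 lower and 6 not called, with a median log2 fold change of 0.28. Shares over all genes tested were 8.35% higher and 3.46% lower. Ccnd2, a D-type cyclin of margin progenitors, had 45.3, 40.4, 30.8 and 35.5 CPM in Ezh2fl/null libraries, against 14.3, 12.6, 9.40 and 10.9 CPM in Ezh2fl/+ libraries (log2 1.69, SE 0.13, adjusted p = 5.81e-07). The Wnt effector gene Lef1 rose by log2 0.71 (SE 0.13, adjusted p = 0.00144) and the Wnt target Axin2 by 0.38 (SE 0.07, adjusted p = 0.00245). Col9a1, a collagen gene of the margin and ciliary epithelium, fell by 0.47 on the log2 scale (SE 0.06, adjusted p = 0.000154).

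Markers of neighbouring tissues were read beside these values, and beside the shares of all genes tested, 8.35% called higher and 3.46% lower. The 12 pigment epithelium markers, 9 of them with a row, summed to 52.0 to 73.2 CPM in Ezh2fl/null and 48.7 to 81.9 CPM in Ezh2fl/+ libraries, with 1 of 8 tested, Rlbp1, called higher (log2 0.43, adjusted p = 0.0441; the call ended under 12 of 20 alternatives). Of 18 lens markers 7 had no row and 9 too few reads, the 2 tested were not called (Bfsp1 log2 0.32, adjusted p = 0.515), and the sums ran from 3.98 to 13.0 CPM in Ezh2fl/null and from 3.17 to 17.6 CPM in Ezh2fl/+ libraries. Replicate 2 of Ezh2fl/null and replicate 1 of Ezh2fl/+ held the highest lens sums, and without both libraries the same 4 members were called. All 3 astrocyte and optic nerve head markers, Pax2, Gfap and S100b, had no row.

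Some markers of periocular mesenchyme and surface ectoderm were higher in Ezh2fl/null libraries. Of 12 mesenchyme markers 10 were tested, 5 were called higher, none lower and 5 not called. Among those called were Twist1 at 1.5 ± 0.270 CPM in Ezh2fl/null and 0.0945 ± 0.0821 CPM in Ezh2fl/+ libraries, Prrx1 (log2 1.93, SE 0.18) and Pdgfra (1.01, SE 0.11), each with an adjusted p of at most 1.87e-05. The mesenchymal collagen genes Col1a1, Col1a2 and Col3a1, named after their values were seen, were not called, at 14.1 ± 9.48, 12.8 ± 6.46 and 8.08 ± 5.24 CPM in Ezh2fl/null and 12.2 ± 6.85, 10.9 ± 3.80 and 4.77 ± 2.03 CPM in Ezh2fl/+ libraries. The summed mesenchyme level was 31.7, 61.3, 85.1 and 81.1 CPM in Ezh2fl/null libraries, against 33.8, 48.7, 24.9 and 52.9 CPM in Ezh2fl/+ libraries. The sums overlapped between groups.

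Of 7 surface ectoderm and cornea markers 3 were tested and 2 called higher, Epcam (log2 1.23, SE 0.09, adjusted p = 5.68e-07) and Krt18 (0.86, SE 0.20, adjusted p = 0.00962), whose call ended under 3 of 20 alternatives. The 5 markers with a row summed to 27.0 to 29.6 CPM in Ezh2fl/null and 11.7 to 20.2 CPM in Ezh2fl/+ libraries, with no overlap. Of the mean sums, 28.5 and 15.7 CPM, Epcam held 17.4 and 7.38 CPM and Krt18 7.18 and 3.90 CPM. Krt15, not called, averaged 2.98 and 3.21 CPM. Krt5 (0.462 and 0.740 CPM) and Krt8 (0.457 and 0.440 CPM) had too few reads to test. Krt15, Krt5 and Krt8 are named after their values were seen. The defining markers Krt14 and Trp63 had no row. Of 8 endothelial markers 3 were tested, with Cldn5 called higher (log2 0.43, adjusted p = 0.0201) and Kdr, which retinal progenitors also express, lower (-0.24, adjusted p = 0.00697). These calls ended under 7 of 20 alternatives for Cldn5 and 3 for Kdr. Of 9 retinal progenitor markers 2 were lower, Fgf15 among them (-0.31, adjusted p = 0.00910, a call that ended under 3 of 20 alternatives), and 7 not called, and their sum was 2860 to 3182 CPM in Ezh2fl/null and 3358 to 3504 CPM in Ezh2fl/+ libraries. The part of tissue makeup in the members' values was not tested.

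**Figure D4:**
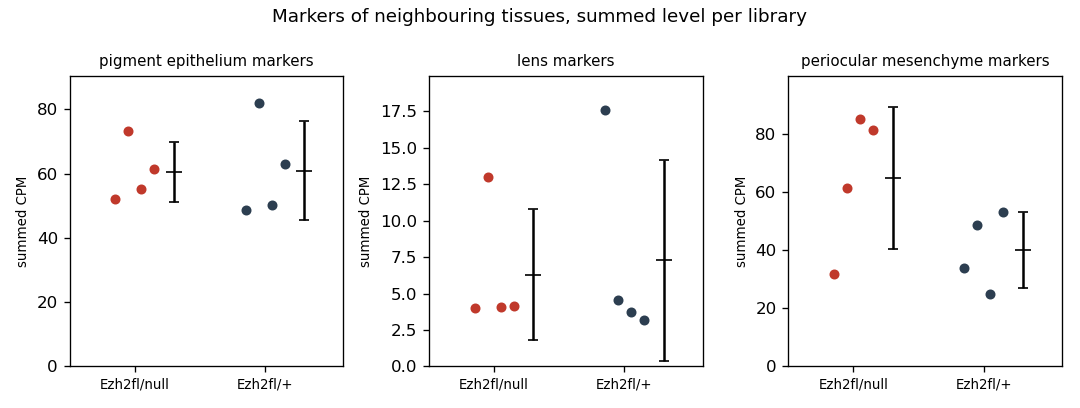
Summed CPM of pigment epithelium, lens and periocular mesenchyme markers in each library (vertical axes, linear from 0), Ezh2fl/null in red on the left and Ezh2fl/+ in dark blue on the right, with mean and SD (n = 4) in black. The pigment epithelium and lens sums overlap between groups, and 3 of 4 Ezh2fl/null mesenchyme sums, 61.3 to 85.1 CPM, lie above the highest Ezh2fl/+ sum of 52.9 CPM.

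The genes most like each member across the 8 libraries were found by the root mean square difference of log2 CPM centred on each gene's mean. For Zic1 these were Il17rd (0.056) and Adap1 (0.069), among 11685 genes averaging at least 5 CPM. Lhx9 (0.20) and Galnt15 (0.21) were nearest to Mecom, P2ry12 (0.072) and Nfib (0.097) to Wfdc1, and Sema3a (0.095) and Ncam2 (0.11) to Gja1. Nomo1 (0.021) and Preb (0.028) followed Zic2, and Sppl3 (0.025) and Mfge8 (0.029) followed Cdon. Myh14 (0.16) and Gpc4 (0.16) were nearest to Otx1, and Tspan4 (0.26) and Arrdc4 (0.31) to Wls. Msx1 had the most distant neighbours of the 9 members, Chrna6 (0.68) and Ccnd2 (0.70). Msx1, Otx1 and Wls themselves lay below the 5 CPM asked of the candidates. Their distances rest on few counts and cannot be compared with those of the other members.

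Across 20 alternative analyses, Zic1, Mecom and Wfdc1 were called higher in all 20, with log2 fold changes of 0.78 to 0.85, 1.40 to 1.66 and 0.72 to 0.87. The Gja1 estimate stayed between 0.44 and 0.64. Among the 8 members tested with all libraries, the estimates of Wls and Otx1 moved most, Wls between 0.31 and 0.96 and Otx1 between 0.21 and 0.60.

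**Figure D5:**
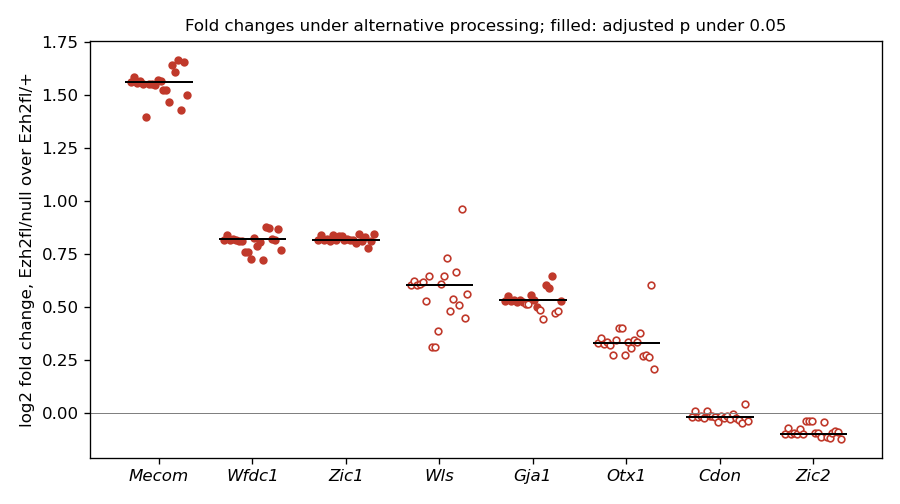
The log2 fold change of Ezh2fl/null over Ezh2fl/+ (vertical axis) of the 8 members tested, with the value as reported as a black line and each of 20 alternative analyses as a point; filled points have an adjusted p under 0.05. Mecom, Wfdc1 and Zic1 are filled throughout, Gja1 is open in 6, and Cdon and Zic2 lie between -0.12 and 0.04.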

How the data were processed

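RNA was measured in 8 libraries of 4 per genotype. The submitters' processing notes name Novoalign 2.08.01, the mm10 build and DESeq2. The counting tool, gene models and strand setting were not stated in the sources used. The authors deposited 1 table of 16096 genes with whole-number counts per gene and library, not normalized, and a lowest row sum of 18. The deposited FPKM columns divide by gene length and library size and were used for levels between genes. The authors' log2 ratio column and their adjusted p column, a score on an unnamed scale, come from their own comparison; only the ratio of Msx1 is printed. No column was without a sample.

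Each gene was tested on the deposited counts with edgeR 4.0.16 in R 4.3.3 (TMM normalization, filterByExpr by group with a minimum count of 10, glmQLFit, glmQLFTest, Benjamini-Hochberg adjustment over 15014 genes, calls at 0.05), with no covariate; 1082 genes were left out. Normalization factors were 0.955 to 1.04. Standard errors and 95% limits come from the quasi-likelihood F statistic. CPM uses normalized library sizes, and list sums add the CPM of the members in the table. Single values were compared by exact two-sided permutation over 70 assignments. A count of 1 is 0.0537 to 0.0749 CPM. The procedure was tested on simulated data.

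The members and all gene lists were chosen with earlier results of these data known, so their direction is no independent support. Named genes were the members, Ezh2, the called genes of each list (up to 4 with the smallest p, or the single smallest p where none was called), and the 2 genes nearest to each member; exceptions are stated, and certain genes are not reported here. Coordinates are from GENCODE M21 (mm10). Alternatives were DESeq2 1.42.0, limma 3.58.1 on log2(FPKM + 0.1), other scalings and filters, a replicate block, embryo sex read from Xist, lens and mitochondrial RNA, and each library left out; the mitochondrial covariate was added after seeing the data.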

Additional observations from a re-analysis of the deposited data

Results flagged for a closer look

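In 4 of 18 groups of 4 libraries checked, 1 library stood far from the other 3 by Dixon's criterion, which chance alone meets in about 1 in 20 groups. Msx1 was highest in replicate 1 of Ezh2fl/+, at 0.599 CPM against 0.167 to 0.210 CPM in the other 3, on 8 counts against 3 in each. Otx1 was highest in replicate 3 of Ezh2fl/+, at 1.89 CPM against 0.947 to 1.05 CPM. Zic2 was lowest in replicate 2 of Ezh2fl/null, at 54.2 CPM against 63.8 to 64.7 CPM. Cdon was highest in replicate 3 of Ezh2fl/+, at 210.1 CPM against 177 to 182 CPM.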

How the results depend on the processing

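The number of members called higher ran from 3 to 5 over 20 alternatives, and none was called lower in any. It reached 5 only where Msx1 entered the fit. Without replicate 2 or 3 of Ezh2fl/+ it was 4, with Msx1 in and Gja1 out. Msx1 entered the limma fit and the fits with 1 library left out through Ezh2fl/null libraries, so those counts are a description. Among the members tested with all libraries, only Gja1 gained or lost a call. Gja1 lost its call with embryo sex as a covariate (adjusted p = 0.0900), in male libraries alone (0.0567) and without replicate 1 (0.0567) or 2 (0.0540) of Ezh2fl/null or replicate 2 (0.0598) or 3 (0.0602) of Ezh2fl/+; the cause was not tested. The Cdon estimate, not called anywhere, ran from -0.0477 to 0.0392 with 1 library left out; it changed sign to 0.0051 with library size alone, 0.0065 with limma on FPKM and 0.0392 without replicate 3 of Ezh2fl/+. Of all genes, 1253 were called higher and 520 lower. The lower count was 273 with library size alone, where 82.5% of calls were higher against 70.7%, 170 with limma, 246 with sex as a covariate, 255 in males, and 323 without the pair of libraries with lens crystallin counts. The higher count was 795 with sex as a covariate and 800 in males. By Xist the female libraries were replicates 2 and 3 of Ezh2fl/null, so sex was unbalanced between the groups. The male fit, for Gja1 too, held only replicates 1 and 4 of Ezh2fl/null beside all Ezh2fl/+ libraries. Leaving out each library gave 1008 to 1233 higher and 329 to 667 lower, the lowest without replicate 3 of Ezh2fl/+. With a replicate block 4 members, and 1179 genes higher and 497 lower, were called. Libraries sharing a number correlated at 0.338, -0.146, 0.0890 and 0.284 in their deviations, and 2 of 4 Ezh2fl/null libraries correlated best with their own number, so the numbers were not taken as pairs. The Zic1 to Zic2 log2 ratio difference ran from 0.85 to 0.97 under 10 alternatives. Depth limits Msx1, Otx1 and Wls, with at most 41 counts in any library.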
